A study of Mus musculus with 84 samples.

Results

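The genes described here are the nuclear genes for the subunits of the mitochondrial respiratory chain and ATP synthase, followed in 7 tissues of lean and leptin-deficient mice. They were chosen by name alone: symbols of the Nduf, Sdh, Uqcr, Cox4 to Cox8 and Atp5 series, without assembly factors, symbols ending in -ps and genes on the mitochondrial chromosome. This gave 88 of the 49671 genes counted, of which 38 were assigned to complex I, 4 to complex II, 8 to complex III, 21 to complex IV and 17 to ATP synthase (complex V). Ndufa4 and its relative Ndufa4l2 were placed with complex IV.

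Heart, skeletal muscle, aorta, liver, epididymal fat and 2 brain regions, hippocampus and hypothalamus, were taken from 12 mice. The mice were wild type (WT) or ob/ob and ate a high-fat diet (HFD) or a normal diet (ND), 3 mice for each genotype and diet. The ob/ob mouse is obese because a mutation in the leptin gene leaves it without working leptin in any tissue, and WT mice carry no modification named in the labels. The labels give 20 weeks for all mice without saying whether that is age or time on the diet, and strain and sex are not given in the sources used here. The 28 groups hold 3 libraries each, 1 per mouse, so p-values measure the spread between mice. Total counts ran from 10499528 to 17040790 per library.

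Electrons from NADH enter the chain at complex I and those from succinate at complex II, pass through complexes III and IV to oxygen, and the proton gradient built on the way drives ATP synthase. Most subunits are nuclear-encoded and meet a small set of subunits made inside the mitochondrion. Cytochrome c oxidase, complex IV, has subunits with alternative genes: Cox6a2, Cox7a1 and Cox8b are the heart and muscle forms, and Cox6a1, Cox7a2 and Cox8a the widely expressed forms. In brown adipocytes the same chain runs with uncoupling protein 1 (Ucp1) to make heat.

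Levels are given as TPM, counts divided by gene length and scaled to a fixed sum per library, where genes or tissues are compared. The promoters of 5 of the isoform genes are shown because the paired genes have alternative tissue patterns. Each stretch is the 250 bases before the RefSeq start site in GRCm38.p6, read 5′ to 3′ along the transcript, and capitals mark matches to the motifs described at the end of the report. They lie at chr5:115348959-115349208 on the minus strand (Cox6a1), chr7:30183921-30184170 on the plus strand (Cox7a1), chr9:79759854-79760103 on the minus strand (Cox7a2), chr19:7217617-7217866 on the minus strand (Cox8a) and chr7:140900447-140900696 on the minus strand (Cox8b). The gene models behind the counts start slightly earlier than RefSeq for Cox6a1, Cox7a1 and Cox7a2, inside the printed stretch.
Cox6a1: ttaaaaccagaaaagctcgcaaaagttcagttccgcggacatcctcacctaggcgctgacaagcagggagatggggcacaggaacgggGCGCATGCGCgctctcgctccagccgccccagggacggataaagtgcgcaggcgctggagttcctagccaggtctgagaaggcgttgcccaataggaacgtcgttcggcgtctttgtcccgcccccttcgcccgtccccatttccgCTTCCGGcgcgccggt
Cox7a1: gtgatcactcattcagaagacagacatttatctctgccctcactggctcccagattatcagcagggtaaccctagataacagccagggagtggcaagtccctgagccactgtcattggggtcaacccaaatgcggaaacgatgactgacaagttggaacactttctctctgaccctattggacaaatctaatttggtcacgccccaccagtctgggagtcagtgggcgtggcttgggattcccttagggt
Cox7a2: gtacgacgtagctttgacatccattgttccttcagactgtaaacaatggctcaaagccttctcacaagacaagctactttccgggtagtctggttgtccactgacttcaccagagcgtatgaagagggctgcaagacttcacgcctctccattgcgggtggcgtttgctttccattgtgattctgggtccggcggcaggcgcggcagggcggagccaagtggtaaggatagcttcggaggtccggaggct
Cox8a: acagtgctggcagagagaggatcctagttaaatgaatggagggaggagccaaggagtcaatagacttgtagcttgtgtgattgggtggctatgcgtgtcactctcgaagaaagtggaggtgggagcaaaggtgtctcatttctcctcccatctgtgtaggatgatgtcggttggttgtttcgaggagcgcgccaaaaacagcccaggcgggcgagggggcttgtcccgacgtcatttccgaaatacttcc
Cox8b: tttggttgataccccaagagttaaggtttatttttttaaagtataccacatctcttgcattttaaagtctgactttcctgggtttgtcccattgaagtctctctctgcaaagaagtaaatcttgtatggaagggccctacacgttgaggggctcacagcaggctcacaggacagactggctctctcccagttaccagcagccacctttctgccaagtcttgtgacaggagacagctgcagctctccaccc
Among these 5 stretches the CpG dinucleotide was less frequent in the muscle forms, with 4 in Cox7a1 and 1 in Cox8b, against 26 in Cox6a1, 14 in Cox7a2 and 11 in Cox8a. The share of G or C differed less within the pairs, at 51.2% in Cox7a1 and 54.8% in Cox7a2, and 47.2% in Cox8b and 52.8% in Cox8a. It was 62.8% in Cox6a1. Cox6a2 had no entry in the promoter table.

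The 88 genes took the largest part of all TPM in aorta and heart. Their summed share was 5.56 to 11.6% in the aorta libraries (median 8.40%), 6.15 to 8.37% in heart (median 7.30%) and 3.08 to 7.05% in skeletal muscle (median 5.32%). In hippocampus and hypothalamus the medians were 2.59% and 2.49%, and in liver and epididymal fat both were 1.94%. No library of aorta, heart or skeletal muscle was as low as any library of the other tissues. The 13 subunits encoded in the mitochondrion took 41.9 to 51.6% of TPM in heart and 28.7 to 45.1% in aorta, and 4.95 to 11.6% in epididymal fat.

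**Figure D1:**
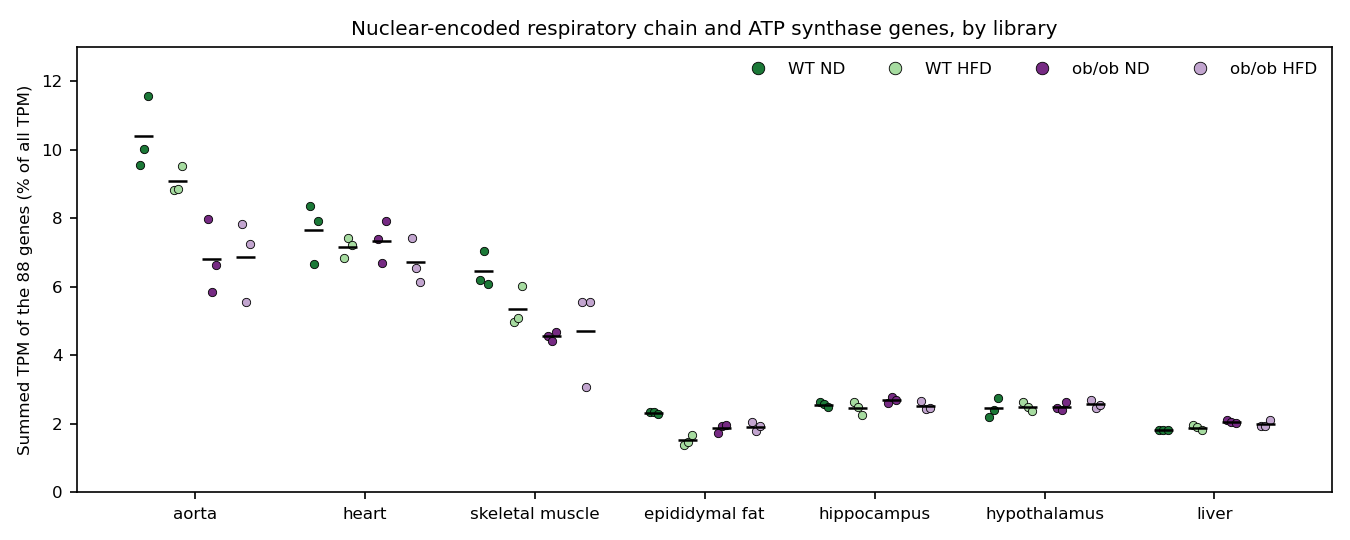
Summed TPM of the 88 genes as a percentage of all TPM (y axis) in every library, by tissue and group; each point is 1 mouse and each bar the mean of 3. Aorta and skeletal muscle show the widest spread (5.56 to 11.6% and 3.08 to 7.05%), and the WT HFD group is lowest in epididymal fat.

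Of the 88 genes, 86 reached a mean of 1 TPM in at least 1 tissue and 80 did so in all 7. The mean was highest in aorta for 45 genes, in heart for 35, in hypothalamus for 3 (Atp5s, Cox7a2l and Cox7b2), in skeletal muscle for 2 (Atp5e and Atp5g2) and in hippocampus for 1 (Cox6b2). Cox8b led in aorta with a mean of 9343 TPM, Cox6a2 in heart with 3621 TPM and Cox8b in skeletal muscle with 3345 TPM. The widely expressed Cox8a was the highest member in the other tissues, from 901 TPM in liver to 2254 TPM in hippocampus. These orders describe TPM and rest on the annotated gene lengths.

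Ndufs3 and Cox8c reached 1 TPM in no tissue. Ndufs3 encodes a core subunit of complex I, present in every working copy of the complex, yet had 163 counts over all 84 libraries, and the 20 counts of Cox8c were fewer still. Uqcrc1, a core subunit of complex III, had a total of 8448 counts and stood at 9.73 TPM (median) in aorta, far below the other core subunit genes. The levels of Ndufs3 and Uqcrc1 are therefore uncertain, and no change is described for either gene by itself. Uqcrc1 is still counted in the tallies of tested and called genes, with complex III. Strand was not used in the counting, so reads of a gene and of one overlapping it on the opposite strand cannot be separated. Among the genes with such overlap, it covered 43.96% of the exon bases of Atp5o, 39% of Ndufb6, 29.98% of Ndufa13 and 19.8% of Uqcrc2. It covered 12.89% of Ndufb11, 12.33% of Ndufb5, 10.49% of Ndufa2 and 10.3% of Cox6a2.

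The aorta libraries held much RNA of brown fat. Ucp1 stood at 4304 to 14070 TPM and Adipoq, the adipocyte hormone adiponectin, at 1474 to 2551 TPM, whereas Acta2, smooth muscle actin, stood at 137 to 860 TPM. The other tissues carried their own markers. Myh6, the cardiac myosin, was at 1499 to 2665 TPM in heart, Alb, serum albumin, at 49440 to 79400 TPM in liver, and Snap25, a synaptic protein, at 621 to 1110 TPM in both brain regions. In skeletal muscle Ckm, muscle creatine kinase, ran from 720 to 18490 TPM, and in epididymal fat Adipoq ran from 521 to 13430 TPM.

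The heart and muscle forms of cytochrome c oxidase subunits separated the tissues. Cox6a2 made up a median of 95.7% of Cox6a TPM in heart and 88.2% in skeletal muscle, but 0.242% in aorta. Cox8b made up 90.04% of Cox8 TPM in heart, 85.1% in skeletal muscle and 71.1% in aorta, and Cox7a1 made up 70.4%, 57.7% and 62.02% of Cox7a TPM. The aorta libraries thus carried Cox7a1 and Cox8b with little Cox6a2, unlike heart and muscle. In liver the medians of Cox6a2 and Cox8b were at or near 0 TPM, with 0.267 and 1.47 TPM the highest single values. Among the other families, Cox6b2 was at most 1.85% of Cox6b TPM and Cox4i2 at most 1.64% of Cox4i TPM in any library. Atp5g3 was the main gene of the 3 that encode the same ATP synthase c subunit, with medians of 61.3 to 79.3% across tissues.

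**Figure D2:**
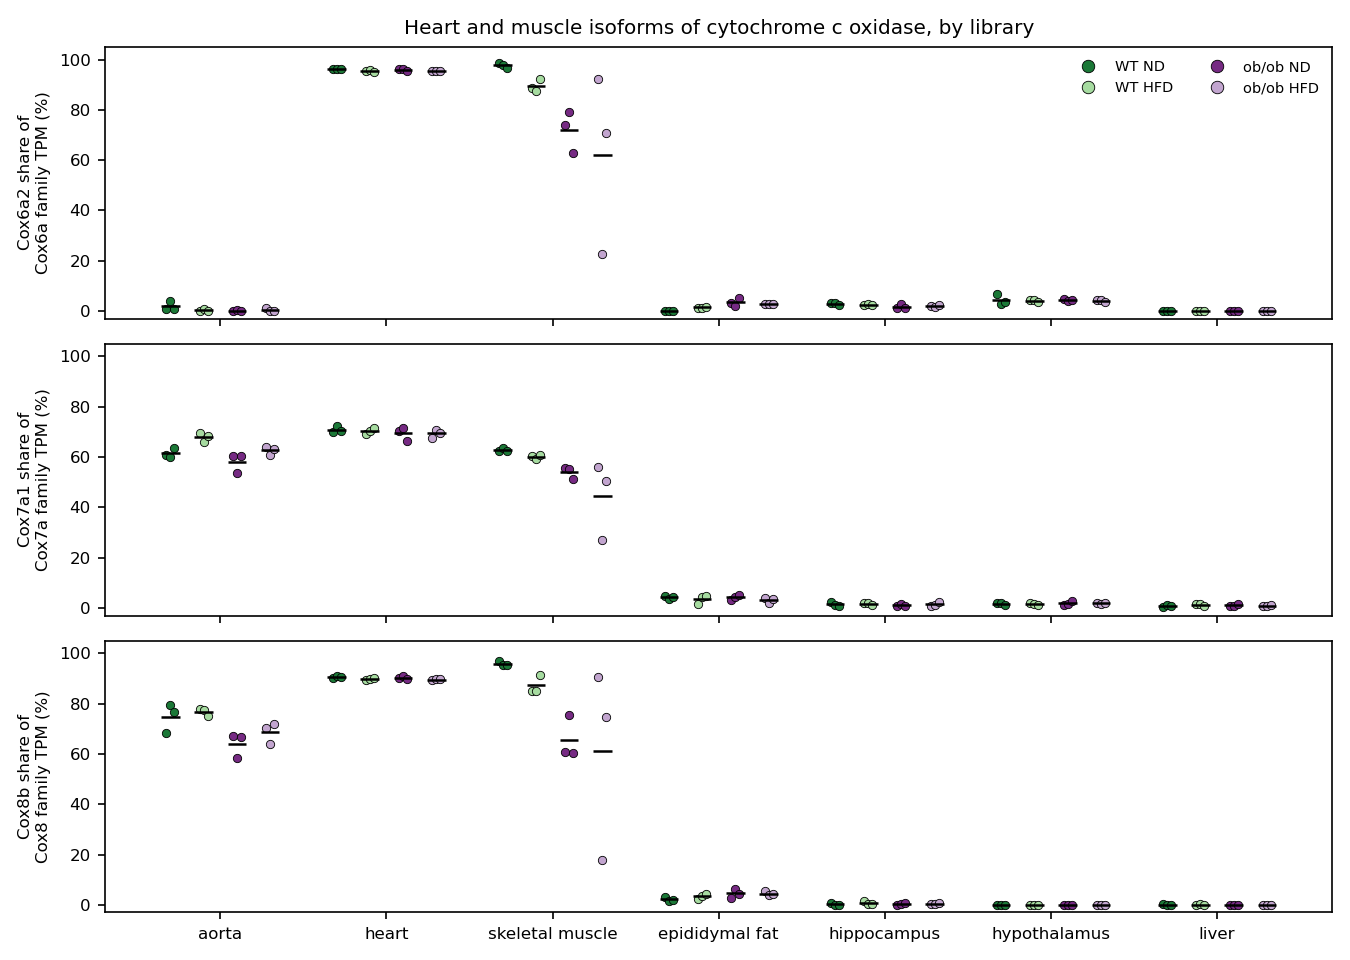
Share of the heart and muscle form in the TPM of its family (y axis, percent) for Cox6a2, Cox7a1 and Cox8b in every library, by tissue and group; points are mice and bars are means of 3. Heart libraries stay close together, while the skeletal muscle shares of Cox6a2 run from 22.9 to 98.5%.

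Shares were compared between genotypes by an exact two-sided permutation within diet, 6 mice against 6, with a smallest possible p of 0.005 and 52 tests adjusted together. No test passed the adjusted threshold of 0.05. With this smallest p and 52 tests, a test could pass only if several others also had small p-values, so the lack of calls does not show equal shares. The Cox8b share in aorta was 75.8% in WT and 66.4% in ob/ob mice, a difference of −9.36 percentage points (exact permutation p = 0.005, adjusted p = 0.052). In skeletal muscle the mean share of Cox7a1 was 61.5% in WT and 49.4% in ob/ob mice, −12.1 points with the same p-values, and that of Cox6a2 was 93.6% and 66.9%, −26.7 points (exact p = 0.02, adjusted p = 0.0867). The Cox8b share in skeletal muscle was 91.55% in WT and 63.25% in ob/ob mice, −28.3 points (exact p = 0.015, adjusted p = 0.0709). Atp5g3 went the other way in aorta, from 58.9% to 66.03%, a difference of 7.12 points (exact p = 0.005, adjusted p = 0.052).

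In aorta many of the nuclear subunit genes were lower in ob/ob than in WT mice on both diets. In bulk tissue, fewer cells of a type and less RNA per cell cannot be told apart. On ND, 61 of 84 tested genes fell and 0 rose, with a median log2 fold change of −0.72 against −0.03 over all 14761 genes. Across all genes 31.7% were called in this comparison and 15.9% were called lower. On HFD 34 fell and 0 rose, with a median of −0.56 against 0.03 over all genes, where 16.2% of genes were called and 7.84% were called lower. Here and below, a gene is said to rise or fall only where the adjusted p of edgeR's quasi-likelihood test, over all genes of the tissue and contrast, was under 0.05, and fold changes are log2 with the standard error of the fit. The contrasts on ND and on HFD share no mouse, and 29 genes fell in both, 47.5% of those called on ND and 85.3% of those called on HFD. Of all genes 4.72% were called lower on both diets, 29.7% of those lower on ND and 60.1% of those lower on HFD. The ND count was 37 without WT ND mouse 3. The HFD count was 7, 8 and 2 without WT HFD mouse 1, 2 and 3, and 4 without ob/ob HFD mouse 2 or mouse 3, while 0 genes were called higher in any of these fits.

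The fall on ND reached all 5 complexes. It was called for 28 of 36 genes of complex I, 2 of 4 of complex II, 6 of 8 of complex III, 16 of 19 of complex IV and 9 of 17 of ATP synthase. Among the genes not past the threshold were several for core subunits: Ndufs1 (0.07) and Ndufv1 (−0.04) of complex I, Sdha (0.10), the flavoprotein of complex II, and Atp5a1 (0.07) and Atp5b (0.11), the α and β subunits of ATP synthase. These names were chosen after their values were seen. On HFD the fall was called for 20 genes of complex I, 1 of complex II, 5 of complex III, 4 of complex IV and 4 of complex V.

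Atp5e, the ε subunit of the rotor stalk of ATP synthase, stood at 779, 1078 and 1261 CPM (counts relative to TMM-scaled library totals; TMM is edgeR's trimmed mean of M values) in WT mice on ND. It stood at 481, 410 and 292 CPM in ob/ob mice on ND, so that every ob/ob value lay below every WT value. The log2 fold change was −1.40 ± 0.20 (adjusted p = 0.00048, edgeR). On HFD the WT values were 795, 832 and 872 CPM and the ob/ob values 546, 459 and 471 CPM, again without overlap, and the change was −0.76 ± 0.20 (adjusted p = 0.0234, edgeR).

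Cox6b2, a minor alternative form of a complex IV subunit, was at 5.95, 4.87 and 6.23 CPM in WT and 1.67, 1.28 and 2.16 CPM in ob/ob mice on ND (−1.72 ± 0.24, adjusted p = 0.000417, edgeR). Cox8b stood at 1782, 2320 and 3026 CPM in WT mice on ND and at 1273, 756 and 720 CPM in ob/ob mice, a change of −1.37 ± 0.25 (adjusted p = 0.00188, edgeR). Its widely expressed partner Cox8a changed by −0.63 ± 0.21 (adjusted p = 0.0378, edgeR). Cox6a2, a heart and muscle form, had 120, 565 and 150 counts in WT and 9, 29 and 17 in ob/ob mice on ND, and fell by 3.92 (SE 1.26, adjusted p = 0.0313, edgeR). The cardiomyocyte markers ran with it, at 0.0111, 0.0412 and 0.0139% of TPM in these WT mice and at most 0.0046% in the ob/ob mice.

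On HFD the smallest p-values belonged to Ndufs6 and Cox7a1. Ndufs6, an accessory subunit of complex I needed for its last assembly steps, stood at 269, 278 and 327 CPM in WT and 188, 169 and 167 CPM in ob/ob mice (−0.74 ± 0.14, adjusted p = 0.00542, edgeR). Cox7a1 stood at 1148, 1018 and 1117 CPM in WT and 631, 526 and 532 CPM in ob/ob mice (−0.96 ± 0.20, adjusted p = 0.00766, edgeR). Both genes showed every ob/ob library below every WT library. The groups of 57 of 84 genes on ND, and of 74 on HFD, did not overlap in TMM-scaled CPM with ob/ob below WT, and 0 lay wholly above. Of all genes 21.2% lay wholly below on ND and 19.4% on HFD.

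Of the 4 genes of complex II, 2 fell in aorta on ND and 1 on HFD. Sdhb, the iron-sulfur subunit, stood at 1337, 1151 and 1480 CPM in WT mice on ND and 1167, 759 and 802 CPM in ob/ob mice, a change of −0.54 ± 0.19 (adjusted p = 0.0412, edgeR). Sdhd, a membrane anchor, changed by −0.73 ± 0.21 (adjusted p = 0.0217, edgeR). Sdha (0.10 ± 0.18) and the other anchor Sdhc (−0.08 ± 0.17) did not pass the threshold. On HFD all 4 values were negative, from −0.71 for Sdhb, which fell, to −0.33 for Sdha, with a median of −0.49. Differences between these genes were not tested.

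Diet left fewer calls in aorta. In WT mice 0 of 84 genes were called by edgeR between HFD and ND, 10 had an unadjusted p under 0.05 against 21.9% of all genes, and 4.21% of all genes were called. DESeq2 called 5. In ob/ob mice 0 were called, 0 had an unadjusted p under 0.05 against 4.02% of all genes, and 0% of all genes were called. For the difference between the diet effects, 0 were called, 8 had an unadjusted p under 0.05 against 13.9% of all genes, and 0.427% of all genes were called. Without WT ND mouse 1, 6 genes were called between diets in WT mice, 5 higher and 1 lower, and 1 gene for the difference. Without ob/ob HFD mouse 2, 1 was called between diets in WT mice. Shares of all genes called in these fits are not given here. In the diet comparisons above and all later comparisons for which edgeR called 0, DESeq2 also called 0 unless its count is given.

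Some of the other gene lists and markers fell beside the subunits in aorta, and others did not. On ND 44 of 77 mitochondrial ribosomal protein genes and 66 of 74 cytosolic ribosomal protein genes fell, with none higher. On HFD 26 mitochondrial and 0 cytosolic ribosomal protein genes fell. The tricarboxylic acid (TCA) cycle list had 1 gene higher and 1 lower of 20 on ND (median −0.04), and 0 of the 13 mitochondrially encoded subunits was called (median 0.18). Ucp1 fell on ND (−1.09 ± 0.23, adjusted p = 0.00459, edgeR), and on HFD its change was −0.54 ± 0.23 (adjusted p = 0.13). The summed share of 11 brown adipocyte markers was 1.40 to 1.87% of TPM in WT and 0.688 to 1.13% in ob/ob mice on ND. Their part in the fall of the subunit genes was not tested.

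The coactivator Ppargc1a, known to drive many of these subunit genes, went the other way in aorta. It stood at 49.3, 29.8 and 36.5 TPM in WT and 121, 79.6 and 87.3 TPM in ob/ob mice on ND. The change was 1.16 ± 0.25 (adjusted p = 0.00477, edgeR) on ND and 1.55 ± 0.25 (adjusted p = 0.00251, edgeR) on HFD. Tfam, which packages and transcribes mitochondrial DNA, fell on ND (−0.54 ± 0.15, adjusted p = 0.0149, edgeR).

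**Figure D3:**
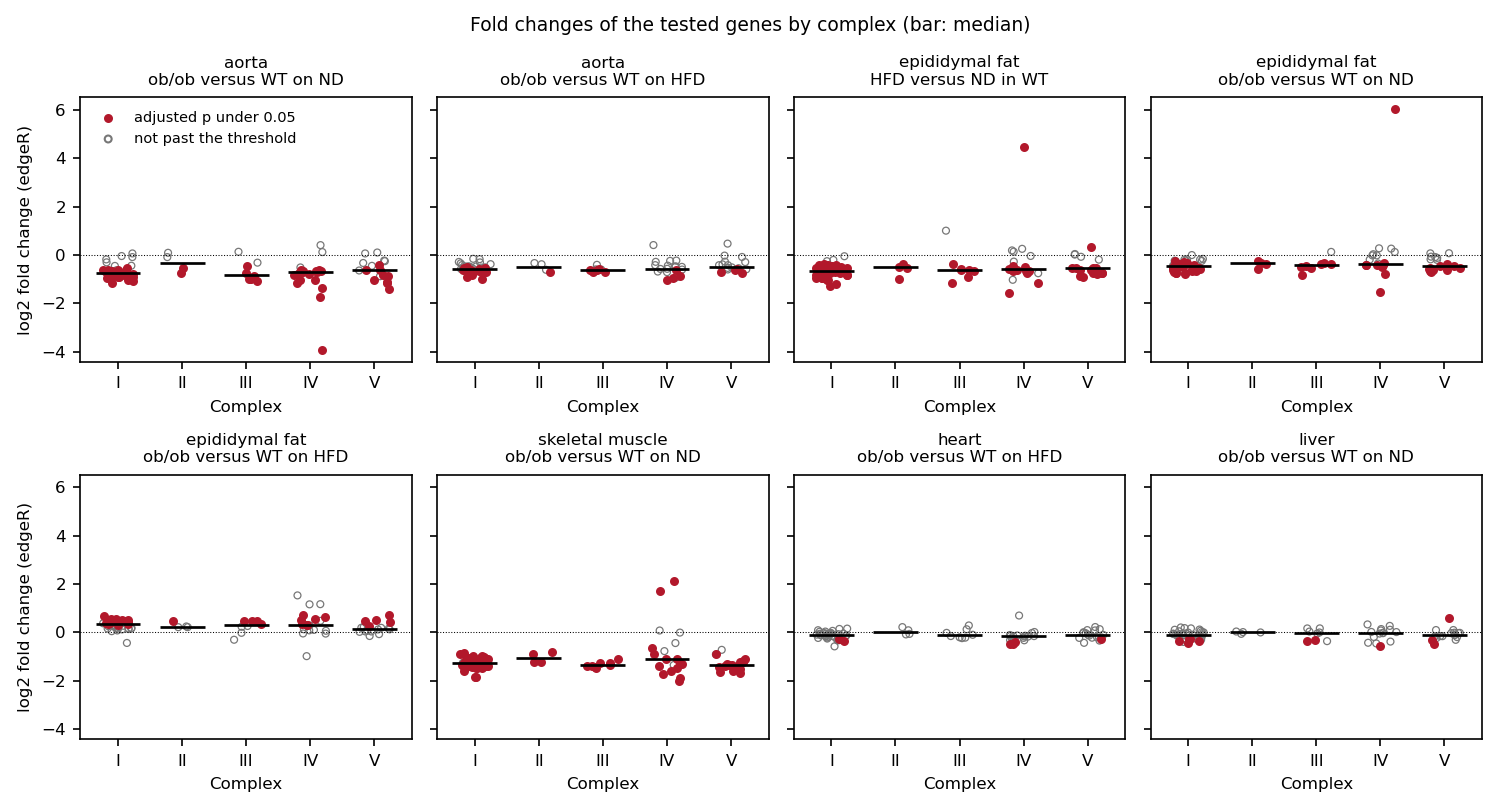
Log2 fold changes (y axis) of the tested subunit genes by complex (x axis) in 8 comparisons; filled points passed an adjusted p of 0.05, open points did not, and bars are medians. In aorta and in skeletal muscle on ND nearly all genes lie below 0, and epididymal fat lies below 0 for ob/ob on ND and above 0 for ob/ob on HFD.

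Epididymal fat showed the most calls for diet. In WT mice on HFD, 65 of 83 tested subunit genes fell and 2 rose against WT mice on ND, with a median of −0.60 against −0.04 over all genes, with 58.9% of all genes called and 30.3% called lower. The fall was called for 32 of 35 genes of complex I, 4 of 4 of complex II, 7 of 8 of complex III, 10 of 19 of complex IV and 12 of 17 of ATP synthase. In ob/ob mice 0 genes were called between diets by edgeR, 5 had an unadjusted p under 0.05 against 5.41% of all genes, and 0% of all genes were called. The test of the difference between the diet effects called 64 genes higher in ob/ob mice and 1 lower, with 40.1% of all genes called and 19.4% called higher.

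Uqcr11, a small subunit of complex III, stood at 158, 158 and 140 CPM in WT mice on ND and at 69.4, 65.7 and 67.8 CPM in those on HFD. On HFD the ob/ob values were 96.6, 95.3 and 90.01 CPM, and on ND 74.4, 89.6 and 94.8 CPM. WT mice on ND were thus the highest group and WT mice on HFD the lowest. The WT diet change was −1.17 ± 0.10 (adjusted p = 3.906e-06, edgeR), and the diet effects of the genotypes differed by 1.29 ± 0.14 (adjusted p = 6.565e-05, edgeR).

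Cox8a stood at 383, 419 and 374 CPM in WT mice on ND and at 182, 171 and 174 CPM in those on HFD. On HFD the ob/ob values were 316, 279 and 280 CPM, and on ND 205, 232 and 240 CPM. The WT diet change was −1.16 ± 0.10 (adjusted p = 4.092e-06, edgeR), and the diet effects differed by 1.53 ± 0.14 (adjusted p = 2.134e-05, edgeR). The ob/ob values lay between those of the WT groups.

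All 4 complex II genes fell with diet in WT fat. Sdha went from 520, 523 and 439 CPM to 201, 246 and 294 CPM, a change of −0.9998 ± 0.15 (adjusted p = 0.000191, edgeR). Sdhb changed by −0.52 ± 0.10, Sdhc by −0.47 ± 0.09 and Sdhd by −0.39 ± 0.09, each past the threshold. In contrast Atp5g1, which encodes the ATP synthase c subunit, rose from 40.8, 39.8 and 33.03 CPM to 55.6, 45.4 and 42.7 CPM (0.34 ± 0.12, adjusted p = 0.0276, edgeR).

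Genotype in epididymal fat had opposite signs on the diets. On ND 56 of 83 genes were lower in ob/ob mice and 1 was higher, with a median of −0.42. Of all genes 48.2% were called and 23% were called lower. On HFD 34 were higher and 0 lower, with a median of 0.27. Of all genes 17.6% were called and 10.1% were called higher. Of these, 26 genes were lower on ND and higher on HFD, 46.4% of those lower on ND and 76.5% of those higher on HFD. Of all genes 2.66% showed this pattern, 11.6% of those lower on ND and 26.5% of those higher on HFD. Each of these contrasts shares its WT group with the diet comparison in WT mice. On ND the lower genes were 25 of complex I, 4 of complex II, 7 of complex III, 10 of complex IV and 10 of ATP synthase.

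On HFD, Cox8a (0.73 ± 0.10, adjusted p = 0.0032, edgeR) and Cox5b had the smallest p-values. Cox5b, a complex IV subunit of the matrix side, stood at 64.5, 65.2 and 65.7 CPM in WT and 106, 93.0 and 102 CPM in ob/ob mice (0.62 ± 0.09, adjusted p = 0.00361, edgeR). On ND, Uqcr11 changed by −0.82 ± 0.10 (adjusted p = 6.186e-05, edgeR) and Cox8a by −0.80 ± 0.10 (adjusted p = 7.054e-05, edgeR). Some genes did not take part. Atp5e was at 103.4, 101 and 99.3 CPM in WT and 98.1, 91.9 and 98.5 CPM in ob/ob mice on HFD, a change of −0.07 ± 0.08 (adjusted p = 0.551, edgeR).

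The count of genes higher on HFD rested on single libraries. It was 2, 18 and 14 without ob/ob HFD mouse 1, 2 and 3, and 15 and 7 without WT HFD mouse 1 and 2. The median stayed above 0 when any 1 of the 12 libraries was left out, from 0.20 to 0.31.

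**Figure D4:**
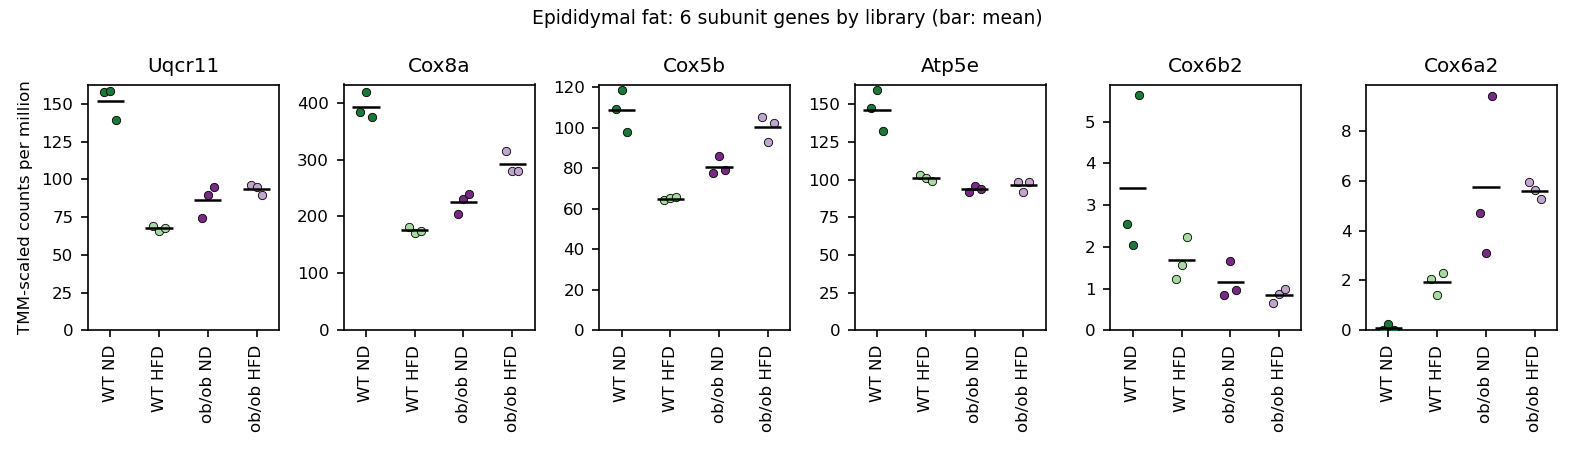
TMM-scaled CPM (y axis) of 6 subunit genes in epididymal fat, by group; points are mice and bars are means of 3. Uqcr11, Cox8a and Cox5b are highest in WT mice on ND and lowest in WT mice on HFD, and Cox6a2 is at or near 0 in WT mice on ND.

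Cox6a2 was the 1 gene called higher in ob/ob fat on ND, and the other gene beside Atp5g1 called higher with diet in WT mice. It had 0, 3 and 0 counts in WT mice on ND, 27, 20 and 32 in WT mice on HFD, 61, 45 and 125 in ob/ob mice on ND and 72, 71 and 74 in ob/ob mice on HFD. Relative to the 3 counts of WT mice on ND, and per total count, the ratio was 25.1 in WT mice on HFD (95% exact counting interval 8.28 to 124) and 74.9 in ob/ob mice on ND (25.3 to 366). The intervals cover counting error only. Itgad, an integrin gene of leukocytes whose exons overlap 10.3% of those of Cox6a2 on the opposite strand, rose alongside. Its counts were 3, 12 and 1 in WT mice on ND, 711, 689 and 870 in WT mice on HFD, 2244, 2357 and 4063 in ob/ob mice on ND and 2833, 3572 and 3110 in ob/ob mice on HFD. Reads of these neighbours cannot be told apart without strand.

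Markers of the cell types of fat moved with the subunit genes. In WT mice on HFD, 9 of 10 white adipocyte markers fell and 10 of 10 macrophage markers rose. Adipoq stood at 11650, 13430 and 12190 TPM in WT mice on ND and at 521, 1088 and 2545 TPM on HFD, and Adgre1, the macrophage marker F4/80, at 57.2, 51.4 and 55.6 TPM on ND and at 658, 694 and 808 TPM on HFD. The white adipocyte markers took 5.13 to 6.05% of TPM in WT mice on ND and 0.324 to 1.36% on HFD, and the macrophage markers 0.325 to 0.333% and 2.05 to 3.72%. In ob/ob mice the white adipocyte share was 1.36 to 2.03% on ND and 1.45 to 1.91% on HFD. Their part in the subunit changes was not tested.

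Genes of other mitochondrial lists also fell with diet in WT fat, where 30.3% of all genes were called lower. All 20 TCA cycle and pyruvate dehydrogenase genes fell (median −0.73), as did 16 of 19 electron carriers and linked dehydrogenases, 11 of 15 complex I assembly factors, 8 of 13 mitochondrially encoded subunits (median −0.65) and 48 of 76 mitochondrial ribosomal protein genes. Cytosolic ribosomal protein genes went the other way, with 34 of 74 higher and 1 lower. On HFD, 14 TCA cycle genes were higher in ob/ob than in WT mice and 0 lower.

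In skeletal muscle, 74 of 85 tested subunit genes were lower in ob/ob than in WT mice on ND and 2 were higher. The median was −1.28 against 0.00 over all genes, and 45% of all genes were called and 18.3% were called lower. The fall was called for 35 of 37 genes of complex I, 4 of 4 of complex II, 8 of 8 of complex III, 12 of 19 of complex IV and 15 of 17 of ATP synthase. The 2 higher genes were Cox6a1 and Cox8a, the widely expressed partners of the muscle forms.

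Cox6a1 stood at 27.1, 39.3 and 38.4 CPM in WT and 151, 118 and 182 CPM in ob/ob mice on ND, a change of 2.11 ± 0.40 (adjusted p = 0.00393, edgeR). Its muscle partner Cox6a2 stood at 1663, 1863 and 1023 CPM in WT and 413, 430 and 298 CPM in ob/ob mice, a change of −1.996 ± 0.64 (adjusted p = 0.0275, edgeR). Neither gene overlapped between the groups. Cox8a rose by 1.69 ± 0.38 (adjusted p = 0.00729, edgeR) while Cox8b changed by −1.90 ± 0.67 (adjusted p = 0.0393, edgeR), and both genes of the Cox7a pair fell, with Cox7a1 at −1.61 ± 0.59 (adjusted p = 0.0437, edgeR) and Cox7a2 at −1.10 ± 0.35 (adjusted p = 0.0267, edgeR).

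Among complex I genes, Ndufs8, a core iron-sulfur subunit, stood at 239, 342 and 241 CPM in WT and 96.6, 116 and 102.8 CPM in ob/ob mice on ND (−1.38 ± 0.31, adjusted p = 0.00733, edgeR). Ndufs5, an accessory subunit, stood at 261, 228 and 213 CPM in WT and 102.9, 113 and 104.8 CPM in ob/ob mice (−1.13 ± 0.26, adjusted p = 0.00758, edgeR). In complex II, Sdha changed by −0.80 ± 0.26 and Sdhd by −1.21 ± 0.33, both past the threshold. On the TPM scale Sdha overlapped between the groups, at 280, 393 and 329 TPM in WT and 349, 344 and 302 TPM in ob/ob mice, so its fall depends on the scaling by TMM. In TMM-scaled CPM, 80 of the 85 genes had all ob/ob libraries below all WT libraries on ND, against 31.1% of all genes.

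The scale mattered in this tissue. With libraries scaled by total counts alone, the median of all genes shifted by 0.56, and 7442 of 15452 genes were called, 6682 of them higher. The median of the subunit genes was −0.73, and 2 rose and 21 fell. The count of 76 called genes also rested on single libraries: it was 17 without ob/ob ND mouse 1, 22 without ob/ob ND mouse 3, 31 without WT ND mouse 2 and 50 without WT ND mouse 1.

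On HFD 0 of 85 genes were called by edgeR between genotypes in skeletal muscle, 5 had an unadjusted p under 0.05 against 18.1% of all genes, the median was −0.49, and 0.0194% of all genes were called. The ob/ob libraries on HFD lay far apart. Cox6a2 stood at 738, 66.1 and 409 CPM in them, and at 678, 569 and 737 CPM in WT mice on HFD. Without ob/ob HFD mouse 1, 2 subunit genes were higher and 45 lower, and the share of all genes called in that fit is not given here. Between diets 0 genes were called in WT mice, with 5 at an unadjusted p under 0.05 against 18.1% of all genes, a median of −0.51 and 0% of all genes called. In TMM-scaled CPM 65 of the 85 had all HFD libraries below all ND libraries, against 15.3% of all genes. Without ob/ob HFD mouse 1, 2 were called higher between diets in WT mice. The difference between diet effects was called for 0 genes, with 3 at an unadjusted p under 0.05 against 11.9% of all genes, and 0% of all genes called.

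Markers of fat and macrophages ran against the subunit genes in muscle. Adipoq stood at 41.1, 88.3 and 371 TPM in WT mice on ND and at 3064, 1729 and 3365 TPM in ob/ob mice on ND. It stood at 470, 5387 and 3001 TPM in ob/ob mice on HFD, where mouse 2 had the highest Adipoq and the lowest Ckm, 720 TPM, of the 12 libraries. On ND 8 of 10 white adipocyte markers and 10 of 10 macrophage markers were higher in ob/ob mice, and 0 of 10 muscle fibre markers was called, with a median of −2.004. The muscle fibre markers took 12.7 to 27.03% of TPM in WT and 6.02 to 10.9% in ob/ob mice on ND. Their part in the subunit changes was not tested.

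**Figure D5:**
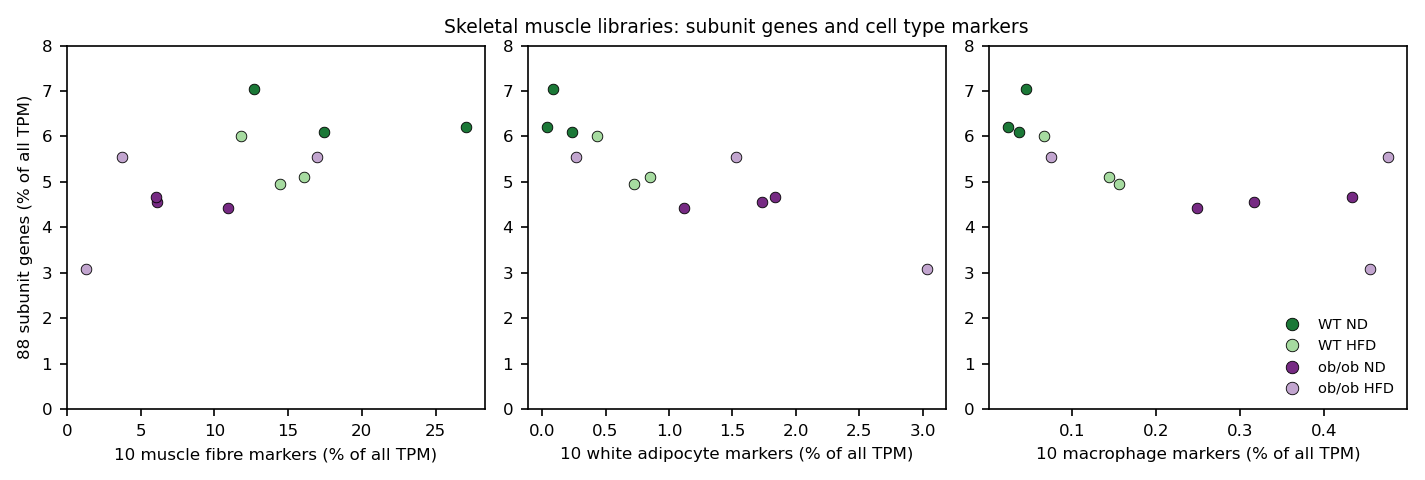
Summed TPM of the 88 subunit genes as a percentage of all TPM (y axis) against the summed percentage of muscle fibre, white adipocyte and macrophage markers (x axes) in the 12 skeletal muscle libraries; each point is 1 mouse. The ob/ob HFD library with the lowest subunit share, 3.08%, has the lowest fibre and the highest adipocyte share.

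Other mitochondrial lists in skeletal muscle fell on ND as well. Among ob/ob mice 17 of 20 TCA cycle genes (median −0.98), 14 of 19 electron carriers, 11 of 15 complex I assembly factors and 69 of 77 mitochondrial ribosomal protein genes were lower. Of the 13 mitochondrially encoded subunits 2 were lower (median −1.11). Ppargc1a fell by 2.14 on the log2 scale (SE 0.62, adjusted p = 0.0191, edgeR), and its partner receptor Esrra changed by −1.14 ± 0.34 and Tfam by −0.80 ± 0.23, both past the threshold.

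Heart held few changes. On ND 1 of 85 genes was called, against 12.7% of all genes called and 6.26% called higher. It was Sdhd, a membrane anchor of complex II, which stood at 578, 485 and 587 CPM in WT and 707, 682 and 698 CPM in ob/ob mice (0.34 ± 0.09, adjusted p = 0.0275, edgeR). On HFD 6 genes fell and 0 rose, with a median of −0.13, and of all genes 17.2% were called and 8.36% called lower. Cox7a1 stood at 930, 1029 and 1153 CPM in WT and 842, 809 and 692 CPM in ob/ob mice on HFD (−0.41 ± 0.11, adjusted p = 0.0161, edgeR). Cox4i2, a hypoxia-linked form of a complex IV subunit, stood at 10.8, 9.31 and 9.87 CPM in WT and 6.58, 7.92 and 6.67 CPM in ob/ob mice (−0.50 ± 0.13, adjusted p = 0.017, edgeR). Both were lower in every ob/ob library on HFD than in every WT library.

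The heart counts were sensitive to single mice. The call of Sdhd was lost without WT ND mouse 2 or any 1 of the 3 ob/ob ND mice, and the HFD count was 11 without ob/ob HFD mouse 1 or WT ND mouse 2 and 1 without WT HFD mouse 3 or ob/ob HFD mouse 3. It was 2 without WT HFD mouse 2 or ob/ob HFD mouse 2. Between diets 0 genes were called in ob/ob hearts by edgeR, and 0.0219% of all genes were called. Of the 85 genes 37 had an unadjusted p under 0.05, against 12.4% of all genes. All HFD libraries lay below all ND libraries for 43, against 8.56% of all genes, and the median was −0.21. In WT hearts 0 were called, 1 had an unadjusted p under 0.05 against 9.1% of all genes, and 0.256% of all genes were called. The difference between diet effects was called for 0 genes, with 8 at an unadjusted p under 0.05 against 7.95% of all genes.

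Of the 20 regulators of mitochondrial biogenesis, 3 rose and 0 fell in ob/ob hearts on ND, and 8 rose and 1 fell on HFD. Ppargc1a stood at 26.7, 26.7 and 18.5 TPM in WT and 61.2, 57.3 and 47.7 TPM in ob/ob mice on ND, a change of 1.34 ± 0.16 (adjusted p = 0.000104, edgeR). On HFD it was 1.24 ± 0.16 (adjusted p = 0.000123, edgeR). Esrrg, an orphan receptor that partners with Ppargc1a, rose by 0.44 ± 0.12 on ND and 0.48 ± 0.12 on HFD, both past the threshold. Beside them, 53 of 74 cytosolic ribosomal protein genes fell on HFD.

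Liver held few called subunit genes. On ND 10 of 79 tested subunit genes were lower in ob/ob mice and 1 higher, with a median of −0.06, and of all genes 36.4% were called and 17.1% called lower. On HFD 4 were lower and 0 higher, against 18.5% of all genes called and 9.85% called lower. Between diets in WT mice 10 were lower and 0 higher, against 21.8% of all genes called and 9.87% called lower. In ob/ob mice edgeR called 0 between diets, where it called 0.913% of all genes. Of the subunit genes 15 had an unadjusted p under 0.05 against 14.3% of all genes. DESeq2 called 2 subunit genes there, and 324 of all 13246 genes. The difference between diet effects was called for 0 genes, with 2 at an unadjusted p under 0.05 against 21.6% of all genes, and 6.17% of all genes called. Single mice moved these counts: genotype on ND gave 5 called genes without WT ND mouse 1, 7 without WT ND mouse 2 and 6 without WT ND mouse 3 or ob/ob ND mouse 3, and genotype on HFD gave 10 without WT HFD mouse 2 and 1 without WT HFD mouse 1 or mouse 3. The HFD genotype count was 2 without WT ND mouse 1 or 3, ob/ob ND mouse 2 or 3, or ob/ob HFD mouse 2. Without ob/ob HFD mouse 3, 2 genes were called between diets in ob/ob mice. The WT diet count was 1 without WT HFD mouse 2, 2 without WT ND mouse 1, 3 without WT ND mouse 3, 5 without WT HFD mouse 1 and 6 without WT ND mouse 2.

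Ndufb11, an accessory membrane-arm subunit of complex I, stood at 198, 184 and 183 CPM in WT mice on ND, 146, 129 and 153 CPM in WT mice on HFD and 146, 128 and 141 CPM in ob/ob mice on ND. The genotype change on ND was −0.45 ± 0.09 (adjusted p = 0.0017, edgeR) and the WT diet change −0.41 ± 0.09 (adjusted p = 0.00692, edgeR). These comparisons share the WT mice on ND, which were the highest group. Of the exon bases of Ndufb11, 12.89% overlap Rbm10 on the opposite strand, and reads there cannot be separated. Atp5s, a factor linked to ATP synthase coupling, was the 1 gene higher, from 6.31, 3.64 and 5.42 CPM to 8.08, 7.38 and 7.63 CPM (0.59 ± 0.17, adjusted p = 0.0178, edgeR). On HFD Ndufb3 changed by −0.38 ± 0.09 (adjusted p = 0.0122, edgeR) and Atp5k by −0.36 ± 0.11 (adjusted p = 0.0351, edgeR).

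The sign of the liver median on ND depended on scaling, and under both scalings it lay below the median of all genes. By TMM the medians were −0.06 for the subunit genes and 0.02 for all genes. With libraries scaled by total counts, the median of all genes shifted by 0.18 to 0.20, and 4031 of 13246 genes were called higher. Of the subunit genes 13 were then higher and 2 lower, with a median of 0.12. The same scaling turned the subunit median from −0.09 to 0.03 for genotype on HFD. For diet in WT mice it turned from −0.12 to 0.04, with 1 gene called higher and 1 lower. On the TPM scale the 88 genes took 1.82 to 1.83% in WT and 2.03 to 2.10% in ob/ob mice on ND. Ppargc1a rose in ob/ob liver on ND (1.19 ± 0.19, adjusted p = 0.000324, edgeR) and on HFD (0.72 ± 0.18, adjusted p = 0.014, edgeR).

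In hippocampus and hypothalamus 0 subunit genes were called for genotype on either diet by edgeR. The calls covered 3.48% of all genes on ND and 1.56% on HFD in hippocampus, and 5.3% and 2.13% in hypothalamus. At an unadjusted p under 0.05, hippocampus held 15 of 83 subunit genes on ND, 18.1% against 21.2% of all genes, and 4 on HFD, 4.82% against 17.1%. Hypothalamus held 0 of 82 on ND, where 22.1% of all genes had such a p, and 1 on HFD, 1.22% against 18.2%. Single mice mattered in hypothalamus: without WT ND mouse 1, 18 subunit genes were lower in ob/ob mice on ND. The share of all genes called in that fit is not given here. For diet, 0 genes were called in either region and genotype, and 0% of all genes were called. The unadjusted p was under 0.05 for 11 genes in ob/ob hippocampus, 13.3% against 2.81% of all genes, and for 0 in the other 3 comparisons, where 2% to 4.05% of all genes had such a p. A count of 0 does not show that levels were equal.

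The promoters of the subunit genes were searched for 4 motifs linked to respiratory genes. The window ran from 250 bases before to 50 after the RefSeq start, on both strands, and 66 of 88 genes had an entry, as did 27025 genes in all. A gene with several windows was counted once, if any of them held the motif. The NRF1 core GCGCATGC was found for 15.2% of the subunit genes and 3.05% of all genes with an entry. The ETS motif CCGGAAG was in 24.2% and 9.93%, the YY1 motif AAGATGGC in 13.6% and 3.19%, and the shorter estrogen-related receptor motif AAGGTCA in 12.1% and 5.38%. The extended receptor site TCAAGGTCA, which contains the shorter one, was in 3.03% (only 2 genes) and 0.466% (126 genes). These are matches of letters and do not show binding.

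In the stretches printed at the start, Cox6a1 held the NRF1 core on both strands in 1 overlapping run, starting 162 and 160 bases before the start site, and an ETS motif 16 bases before it. Cox7a1, Cox7a2, Cox8a and Cox8b held none of the 4 motifs wholly before the start site. Cox8a held an ETS motif that ended in the 50 bases after the start site and may span it.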

How the data were processed

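The deposited table holds whole-number counts of fragments per Ensembl gene in 84 libraries. Per the file headers they were made with featureCounts 1.5.1 over exons of a GRCm38 annotation, paired, without a strand or multi-mapping option, so genes with close copies are undercounted. Per the submitters' processing notes the tools were Trimmomatic 0.36, HISAT2 2.0.5 and featureCounts 1.5.0-p2. The labels' extraction protocol names hearts for all tissues. Groups come from the sample titles, and 6 titles spell HFD as HDF. The blood and weight tables were not used here.

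Tissues were fitted separately in edgeR 4.0.16 (R 4.3.3): filterByExpr (count 10, total 15), TMM, 4 group means sharing a spread, quasi-likelihood tests, and Benjamini-Hochberg adjustment over all genes of a tissue and contrast (threshold 0.05). The standard error is the log2 fold change over the square root of F. The fit was tested on simulated data. TPM used the deposited gene lengths. Symbols matched 49326 of 49671 IDs. The members, lists and naming rule (smallest p per tissue, contrast and direction, isoform families, Sdh genes, regulators, defining markers) were chosen with earlier results of these data known. Alternatives were DESeq2 1.42.0, its size factors, total counts, no filter, a replicate block, the mean over both diets and each library left out. Mouse numbers name different mice and do not pair them. The own values of 1 further member gene, which is in all counts and sums, are not reported here.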

Additional observations from a re-analysis of the deposited data

Results flagged for a closer look

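The diet effects of the genotypes differed in epididymal fat for 65 of 83 subunit genes, by edgeR's test of the difference itself at an adjusted p of 0.05, and 40.1% of all genes were called in the same test. What drew attention was that WT and ob/ob mice, under the same change of diet, gave different effects. The difference was 1.53 for Cox8a and 1.29 for Uqcr11 on the log2 scale, where both fell with HFD in WT mice and neither was called in ob/ob mice. For Cox6a2 it was −4.50 in the fitted model, a value that depends on how 3 counts in all the WT mice on ND are handled. The Itgad counts given beside it rose in the same groups, and their part in it was not tested.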

How the results depend on the processing

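Depth limits the low genes. At 10499528 to 17040790 counts per library Ndufs3 and Cox8c did not pass the count filter in any tissue, and whether depth is the cause for Ndufs3 was not tested. The check of single genes covered 30 fold changes, those with the smallest p per tissue, contrast and direction. Under another setting 147 values kept their direction and side of the threshold and 3 lost the call. With a library left out, 341 kept it and 19 lost it, and 0 reversed. Other genes named here, several of them near the threshold, were not in this check. With total counts in place of TMM the counts of called genes were 14 (aorta, genotype on HFD), 0 (heart, genotype on ND), 1 (liver, genotype on HFD), 2 (liver, WT diet) and 23 (skeletal muscle, genotype on ND). Of all genes the same fits called, in that order, 2035 of 14761, 1895 of 13673, 2796 and 3204 of 13246, and 7442 of 15452. With no filter the subunit counts were 4 for WT diet and 3 for the difference of diet effects in aorta, 21 for genotype on HFD in epididymal fat, and 3, 11, 1 and 1 in heart for genotype on ND, on HFD, WT diet and ob/ob diet. In hypothalamus each of genotype on ND, on HFD and ob/ob diet gave 1, and liver gave 10, 4, 3 and 1 for genotype on HFD, WT diet, ob/ob diet and the difference. Of all genes these fits called 1702 and 760 of 28246 in aorta and 2266 of 30199 in fat. In heart they called 2147, 2618, 343 and 360 of 26201, and in hypothalamus 1440, 869 and 39 of 30910. In liver they called 2913, 3285, 976 and 1496 of 24740, each in the order above. With DESeq2 the subunit counts were 5 (aorta, WT diet), 3 and 12 (heart, genotype on ND and HFD) and 2 (liver, ob/ob diet). Of all genes it called 1179 of 14761, 1540 and 2017 of 13673, and 324 of 13246, in that order. The mean over both diets gave 17, 9, 3 and 20 in epididymal fat, heart, hippocampus and liver, where 35.9%, 30.1%, 13.9% and 42.8% of all genes were called. With the replicate block the count was 1 for WT diet in aorta, 38 for genotype on HFD in aorta, 25 for it in fat and 64 for genotype on ND in muscle. Of all genes this setting called 667 and 2574 of 14761 in aorta and 2212 of 15676 in fat. The share of all genes in muscle is not given here. The mouse numbers do not pair the mice: in each tissue 2 to 6 of 18 same-numbered pairs correlated above 0.1. The cause of these differences was not tested.

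With each library left out in turn, the counts ranged as follows, and the shares of all genes called in these fits are not given here. Aorta: 37 to 62 (genotype on ND), 2 to 46 (on HFD), 0 to 6 (WT diet), 0 to 1 (difference). Epididymal fat: 45 to 58, 2 to 32, 64 to 69 and 54 to 65. Heart: 0 to 1 and 1 to 11 for genotype. Hippocampus and hypothalamus on ND: 0 to 1 and 0 to 18. Liver: 5 to 14, 1 to 10, 1 to 14 (WT diet) and 0 to 2 (ob/ob diet). Skeletal muscle: 17 to 82, 0 to 47 and 0 to 2. Without WT ND mouse 3 the aorta count on ND was 37, and without WT HFD mouse 3 that on HFD was 2. The genotype differences of isoform shares, in percentage points, ran from −34.26 to −16.9 (Cox6a2), −15 to −7.728 (Cox7a1), −35.73 to −17.46 (Cox8b) and 0.503 to 1.117 (Ndufa4l2) in skeletal muscle, and from −2.461 to −1.873 (Atp5g1) and 3.791 to 4.625 (Atp5g3) in heart. Across these fits the adjusted p of the exact permutation ran from 0.026 to 0.156 for the families in skeletal muscle and from 0.0433 to 0.1 for those in heart. Each of these families thus passed the threshold in some fits and not in others.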
